A study of Homo sapiens with 12 samples.

Results

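The 98 genes described here are those whose symbol in the array's annotation starts with ZNF followed by a digit, out of 5499 genes with a symbol on the array and 7739 features in all. The rule uses the name alone and no measured value. Nearly all encode C2H2 zinc finger proteins, most of them transcription factors. They are represented by 102 probes, of which ZNF184, ZNF195, ZNF250 and ZNF516 have 2 each. The study compared RNA from H460 cells, an established human lung cancer line with wild-type p53, after 24 h with a drug against RNA from the same line without drug on two-channel arrays. The drugs were 1 µM 5-fluorouracil (5-FU), 0.2 µM cytarabine (spelled cytarabin in the labels), 5 µM cisplatin, 5 nM paclitaxel and 0.2 µM cytochalasin D. In all 12 arrays were used: 4 for 5-FU, covering 2 replicates in both channel orientations, and 2 for each of the other drugs, all with treated RNA in channel 1. Of the drugs, 5-FU and cytarabine act on nucleotide metabolism and DNA synthesis, cisplatin crosslinks DNA, paclitaxel stabilises microtubules and cytochalasin D caps actin filaments. Nothing in the labels says that the replicates were cultured separately, so p-values measure the spread between these replicates, which may be technical.

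A C2H2 zinc finger is a short fold held by a zinc ion that reads a few bases of DNA, and arrays of such fingers give each protein its own binding sequence. Many human ZNF proteins also carry a KRAB domain, which recruits the corepressor TRIM28 and through it the histone methyltransferase SETDB1 and heterochromatin proteins. KRAB zinc finger proteins are best known for silencing transposable elements, and their genes lie largely in clusters on chromosome 19. Other members have no KRAB domain and act as activators, corepressors or modifying enzymes, among them ZNF143, ZNF217 and ZNF451.

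Each value is a log ratio of the channels of an array, taken as log2 and turned to drug over untreated. The deposited values do not state which channel is the numerator. The direction used was set so that the p53 targets MDM2 and CDKN1A and the median of 11 p53 targets are positive in 5-FU. It is therefore likely, not stated, and every direction given here would turn together if it were wrong. Errors are standard errors of the log2 value from limma with n = 2 replicates per drug. A gene is called higher or lower when its Benjamini-Hochberg adjusted p, taken over all features tested in limma, is under 0.05. Ratios hold no expression level, so the cell type markers of the line could not be checked. Each ratio averages over all cells of a culture, so a change in every cell and a change in a share of the cells cannot be told apart. Zinc finger genes share finger-coding sequence, and whether a spot also captured RNA of related members was not tested. The 5-FU arrays lacked a value for 18.4 to 55.1% of the members (20.7 to 45.2% of all features) and the other arrays for 4.08 to 11.2% (5.94 to 13.7%). All 12 values were present for 39 members, and 14 had no 5-FU value.

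The promoters of the 4 members with the largest excess in cisplatin over paclitaxel among those called are shown because these genes lead the contrast between cisplatin and the other drugs of its orientation. The sequences are the 250 bases before the annotated start in RefSeq, build GRCh38.p14, written in the direction of transcription. Capitals mark matches, on either strand, to any of 4 motifs. They are ACTACA (only a part of the element bound by ZNF143), CCGGAAG (ETS factors) and GGGCGG (the GC box bound by SP1 relatives). CCAAT (the box bound by NF-Y) is the last. The motifs were searched independently and none contains another.
ZNF230 (chr19:44002707-44002956, plus strand): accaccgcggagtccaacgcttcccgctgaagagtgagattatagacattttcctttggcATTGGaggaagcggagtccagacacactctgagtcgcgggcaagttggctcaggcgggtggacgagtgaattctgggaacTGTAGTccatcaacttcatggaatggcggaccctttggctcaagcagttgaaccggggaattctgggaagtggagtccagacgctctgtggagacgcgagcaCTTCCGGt
ZNF282 (chr7:149195296-149195545, plus strand): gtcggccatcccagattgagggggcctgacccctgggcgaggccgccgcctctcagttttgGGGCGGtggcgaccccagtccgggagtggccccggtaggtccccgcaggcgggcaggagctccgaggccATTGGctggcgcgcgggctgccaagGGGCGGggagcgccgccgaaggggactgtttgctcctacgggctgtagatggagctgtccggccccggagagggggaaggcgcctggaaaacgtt
ZNF217 (chr20:53593840-53594089, minus strand): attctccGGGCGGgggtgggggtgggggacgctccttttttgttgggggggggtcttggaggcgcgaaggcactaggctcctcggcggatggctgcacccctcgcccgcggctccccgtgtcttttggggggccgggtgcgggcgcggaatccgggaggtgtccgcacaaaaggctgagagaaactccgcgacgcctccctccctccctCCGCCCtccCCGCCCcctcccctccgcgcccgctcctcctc
ZNF443 (chr19:12441022-12441271, minus strand): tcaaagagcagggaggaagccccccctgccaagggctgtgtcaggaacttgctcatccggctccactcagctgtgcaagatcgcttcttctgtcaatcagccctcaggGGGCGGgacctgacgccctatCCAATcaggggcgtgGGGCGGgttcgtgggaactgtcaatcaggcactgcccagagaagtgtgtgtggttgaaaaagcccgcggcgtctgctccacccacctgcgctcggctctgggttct
ZNF230 held 1 ACTACA, 1 CCGGAAG and 1 CCAAT match. ZNF217 held GC boxes only, 3 of them, whereas ZNF282 and ZNF443 each held 2 GC boxes and 1 CCAAT box. Of the 98 members, 86 had a promoter window in the RefSeq table. Those without an entry were ZNF7, ZNF76, ZNF165, ZNF204P, ZNF211, ZNF250, ZNF280B, ZNF385A, ZNF395, ZNF473, ZNF703 and ZNF707. CCGGAAG was found in 33.7% of the 86 member windows and in 8.82% of all 27305 windows of the same length. ACTACA was found in 25.6% and 7.76%, GGGCGG in 62.8% and 42.3%, and CCAAT in 46.5% and 33%. Among the 14 members higher in cisplatin than in paclitaxel, 8 (57.1%) held CCGGAAG, 3 (21.4%) ACTACA, 10 (71.4%) GGGCGG and 8 (57.1%) CCAAT. A match describes the letters only and is no evidence of binding in these cells.

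Among the 8 arrays of cytarabine, cisplatin, paclitaxel and cytochalasin D, the member median was highest on those of cisplatin. The median ratio of the members present was 0.065 and 0.070 on the 2 cisplatin arrays. It lay between −0.033 and −0.0080 on the 6 arrays of cytarabine, paclitaxel and cytochalasin D, and between −0.019 and 0.057 on the 4 arrays of 5-FU. Each array was centred on the median of all its probes, so these values read the members relative to the other probes. Of the 86 members with a value on all 8 arrays hybridised in the same orientation, 21 (24.4%) had both cisplatin values above all 6 values of the other 3 drugs, against 17% of 6519 features. Another 6 (6.98%) had both below, against 12.9% of features. The 6 that lay below were ZNF33A, ZNF142, ZNF185, ZNF782, ZNF793 and ZNF821. Because all 8 arrays carried treated RNA in the same channel, a channel effect cancels in differences between these 4 drugs. Each drug was tested at 1 dose, and the labels do not say how the doses were chosen.

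**Figure D1:**
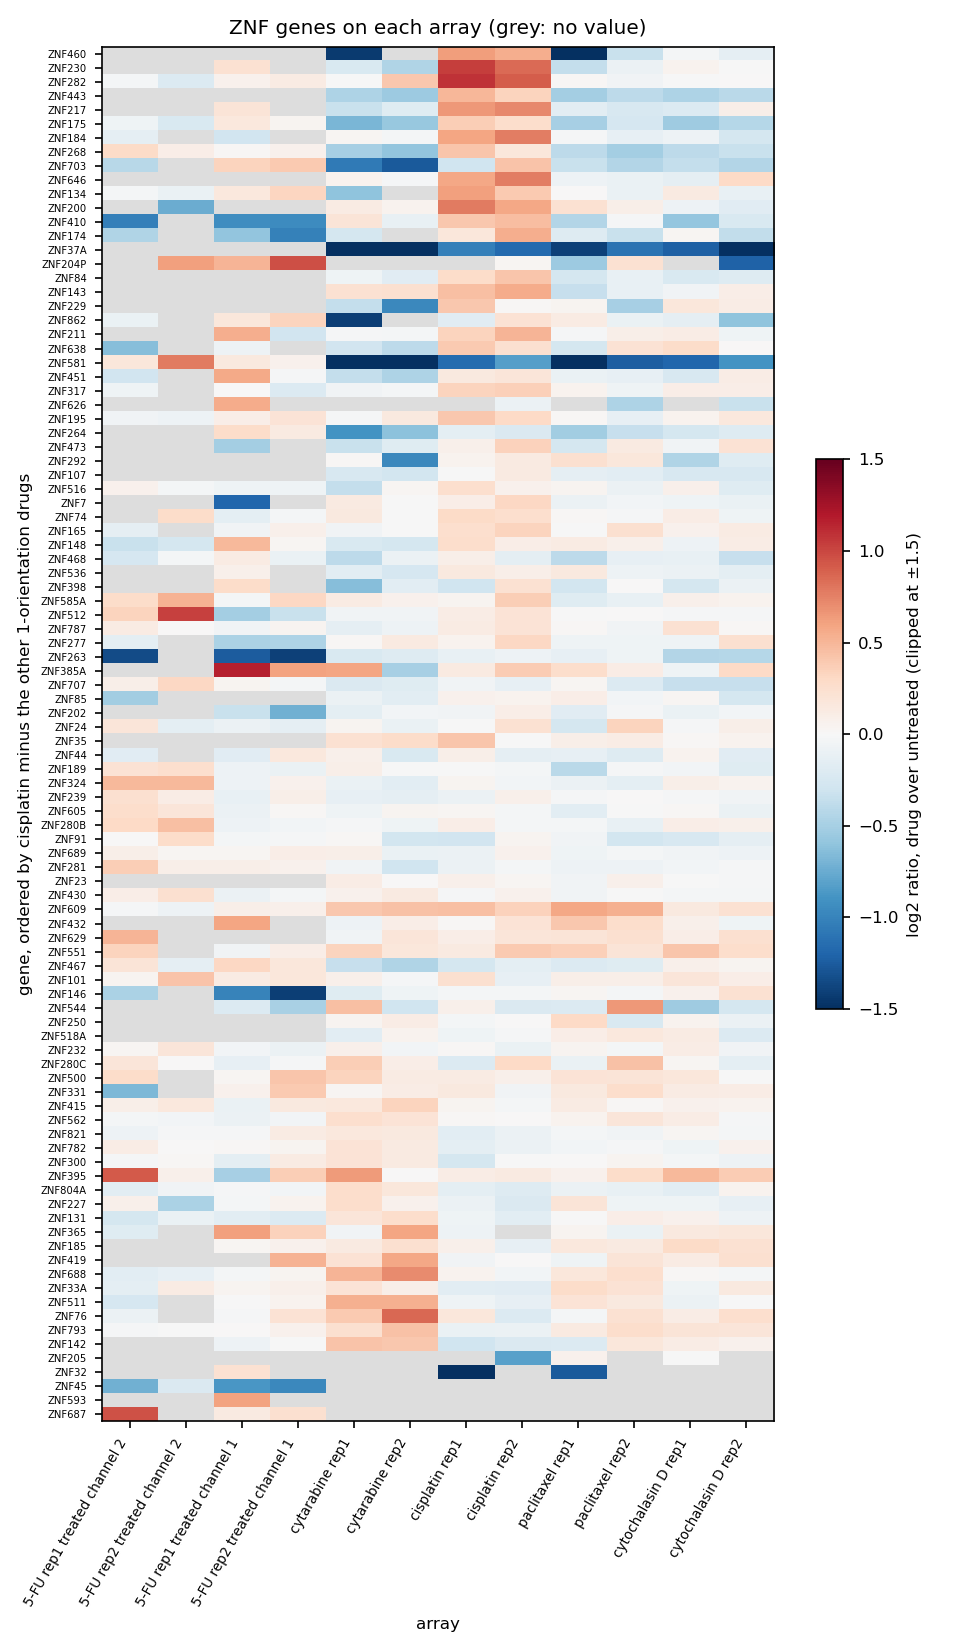
Heat map of the log2 ratio (drug over untreated, likely direction, clipped at ±1.5) of the 98 ZNF genes (rows) on the 12 arrays (columns), with rows ordered by the mean of the cisplatin arrays minus the mean of the other arrays in the same orientation and grey for no value. Red in both cisplatin columns at the top fades to blue or white at the bottom, and ZNF581 and ZNF37A are blue on all 8 arrays of the 4 drugs other than 5-FU.

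Cisplatin minus paclitaxel separated the members in 1 direction only. Of 90 members tested, 14 were higher in cisplatin (15.6%) and 0 lower, where 4.4% of all 6891 features were higher and 1.92% lower. In limma, 3 members were lower at an unadjusted p under 0.05, and 23 higher. The median difference of the members was 0.081 on the log2 scale (quartiles −0.074 and 0.33) against 0.0042 for all features, and 57 of 90 members lay above 0. ZNF230, a gene of the KRAB cluster on chromosome 19, read 1.04 and 0.85 on the cisplatin arrays, −0.36 and −0.088 with paclitaxel, −0.23 and −0.45 with cytarabine and 0.054 and −0.0073 with cytochalasin D. Both cisplatin arrays were above the other 6, and the difference from paclitaxel was 1.17 ± 0.13 (2.25-fold higher, adjusted p = 0.00464, limma). ZNF282, first known as a binder of a retroviral repeat, read 1.09 and 0.91 with cisplatin, 0.016 and −0.054 with paclitaxel, −0.0091 and 0.40 with cytarabine, −0.0012 and 0.0065 with cytochalasin D and −0.029, −0.20, 0.068 and 0.13 on the 5-FU arrays. Both cisplatin values lay above every other value, the next being a cytarabine array, and the difference from paclitaxel was 1.02 ± 0.13 (2.02-fold higher, adjusted p = 0.00544, limma).

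ZNF217, an oncogene of chromosome 20 that works in corepressor complexes with the demethylase LSD1, read 0.65 and 0.72 with cisplatin and between −0.33 and 0.082 on the other 6 arrays of this orientation. The groups did not overlap, and cisplatin exceeded paclitaxel by 0.89 ± 0.12 (adjusted p = 0.00846, limma). ZNF443, a KRAB zinc finger gene of chromosome 19, showed another pattern. It read 0.50 and 0.33 with cisplatin, −0.51 and −0.39 with paclitaxel, −0.46 and −0.54 with cytarabine and −0.46 and −0.40 with cytochalasin D, so the other 3 drugs lay below 0 while cisplatin lay above, and the difference from paclitaxel was 0.87 ± 0.094 (adjusted p = 0.0046, limma). ZNF268, also a KRAB gene, read 0.42 and 0.17 with cisplatin and −0.39 and −0.51 with paclitaxel, a difference of 0.75 ± 0.10. ZNF175, a KRAB gene known as a repressor of viral promoters, read 0.37 and 0.26 with cisplatin and −0.50 and −0.25 with paclitaxel, a difference of 0.69 ± 0.11. The cisplatin and paclitaxel values of both genes lay on opposite sides of 0.

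ZNF460 had a larger difference without a call, 1.62 ± 0.42 (adjusted p = 0.0845, limma), with paclitaxel values as far apart as −1.74 and −0.33; it was chosen after its values were seen. The remaining 8 of the 14 calls were ZNF646 (0.76), ZNF184 (0.75), ZNF143 (0.74), ZNF134 (0.55), ZNF84 (0.54), ZNF200 (0.51), ZNF195 (0.40) and ZNF317 (0.35). The calls of ZNF230, ZNF268, ZNF282 and ZNF443 held in every alternative fit in which the gene was tested, 17 to 19 of them, none of which sets a minimum size of change. ZNF84, ZNF134, ZNF195, ZNF200, ZNF317 and ZNF646 lost theirs without any 1 of the 4 arrays compared, with differences then from 0.29 (ZNF317) to 0.85 (ZNF646), and ZNF134, ZNF195, ZNF200 and ZNF317 also without some arrays of the other drugs. ZNF217 lost it without cisplatin replicate 2 (0.85) or paclitaxel replicate 2 (0.84), and ZNF184 without the same 2 arrays (0.67 and 0.70). ZNF143 and ZNF175 lost it without either cisplatin array (ZNF143 0.78 and 0.69, ZNF175 0.64 and 0.75) or paclitaxel replicate 1 (0.62 and 0.57). The number of calls was 7 and 4 without cisplatin replicate 1 or 2, and 7 and 7 without paclitaxel replicate 1 or 2.

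**Figure D2:**
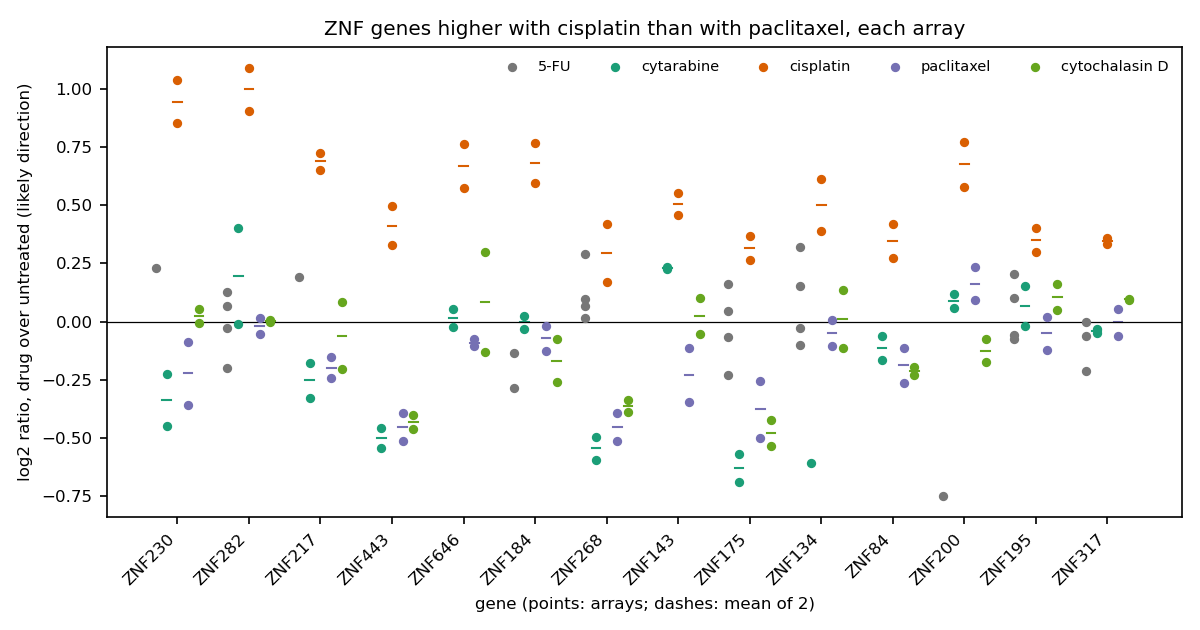
Log2 ratio (drug over untreated, likely direction) of the 14 ZNF genes higher in cisplatin than in paclitaxel, one point per array coloured by drug, with dashes at the mean of 2 arrays. In each gene both cisplatin points lie above both paclitaxel points. For ZNF443, ZNF268, ZNF175 and ZNF84 the other 3 drugs of the same orientation lie below 0.

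The difference between cisplatin and cytochalasin D had the same shape and uses the same cisplatin arrays. Here 12 of 90 members were higher in cisplatin (13.3%) and 0 lower (24 and 4 at an unadjusted p under 0.05 in limma), against 5.53% and 2.72% of 6948 features. The median difference was 0.10 against 0.0032 for all features, and 64 of 90 members lay above 0. ZNF282 differed by 1.00 ± 0.13 (adjusted p = 0.00474, limma), ZNF230 by 0.92 ± 0.13, ZNF184 by 0.85 ± 0.10 and ZNF443 by 0.84 ± 0.094. ZNF184, a KRAB gene of chromosome 6, read 0.59 and 0.77 with cisplatin and −0.076 and −0.26 with cytochalasin D, and ZNF200 read 0.77 and 0.58 with cisplatin and −0.074 and −0.18 with cytochalasin D, so neither overlapped. The 2 probes of ZNF184 differed in size, with cisplatin values of 0.29 and 0.26 on one probe and 0.90 and 1.28 on the other.

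ZNF175 (0.80), ZNF200 (0.80), ZNF410 (0.83), ZNF217 (0.75), ZNF268 (0.66), ZNF84 (0.56), ZNF143 (0.48) and ZNF263 (0.34) made up the other calls over cytochalasin D. The calls of ZNF175, ZNF184, ZNF200, ZNF282 and ZNF443 held in every alternative fit. With each probe as its own feature, ZNF184 was read from its probe with the smaller p, so its call was not shown on each probe. ZNF230 lost it without cisplatin replicate 1 (0.83) or cytochalasin D replicate 2 (0.89), and ZNF268 without cytochalasin D replicate 1 (0.63). ZNF217 lost it without either cisplatin array (0.78 and 0.71) or cytochalasin D replicate 1 (0.61). ZNF84 lost it without cisplatin replicate 2 (0.48) or either cytochalasin D array (0.54 and 0.58). ZNF143, ZNF263 and ZNF410 lost it without any 1 of the 4 arrays compared, with differences then from 0.32 (ZNF263) to 1.01 (ZNF410), and ZNF143 and ZNF263 also without either cytarabine array. Without cisplatin replicate 2 there were 7 calls and without cytochalasin D replicate 1 there were 6, against 8 without cisplatin replicate 1 and 8 without cytochalasin D replicate 2.

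Cytarabine minus cisplatin gave the most calls among the members of the 15 comparisons made. Of 86 members tested, 22 were lower in cytarabine than in cisplatin (25.6%) and 9 higher (10.5%), beside 14.2% and 9.94% of 6622 features. The member median was −0.12 (quartiles −0.39 and 0.071) and that of all features −0.015. ZNF230 gave cytarabine minus cisplatin at −1.28 ± 0.13 on the log2 scale (2.43-fold lower, adjusted p = 0.00134, limma).

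ZNF703, a corepressor gene amplified in some breast cancers, read −1.05 and −1.25 with cytarabine, −0.30 and 0.43 with cisplatin, −0.34 and −0.44 with paclitaxel and −0.36 and −0.44 with cytochalasin D. Cytarabine was the lowest of the 4 drugs, the cisplatin arrays did not share a sign, and the cytarabine minus cisplatin difference was −1.22 ± 0.21 (adjusted p = 0.00835, limma). This call ended without cytarabine replicate 2 (−1.12). ZNF175 (−0.94), ZNF217 (−0.94), ZNF443 (−0.91), ZNF268 (−0.84), ZNF282 (−0.80), ZNF184 (−0.69) and ZNF200 (−0.59) were also lower in cytarabine, and each of these calls and that of ZNF230 held in every alternative fit.

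Several members ran the other way and were higher in cytarabine. ZNF142 read 0.42 and 0.40 with cytarabine and −0.30 and −0.22 with cisplatin (0.68 ± 0.12, adjusted p = 0.0098, limma). ZNF76, the closest relative of ZNF143, read 0.39 and 0.86 with cytarabine and 0.17 and −0.20 with cisplatin (0.65 ± 0.19, adjusted p = 0.0462, limma). The values did not overlap in either gene, but the replicates of ZNF76 were wide apart. ZNF511 read 0.53 and 0.53 with cytarabine and −0.061 and −0.12 with cisplatin, and ZNF688 read 0.51 and 0.71 with cytarabine and 0.051 and −0.042 with cisplatin, with differences of 0.62 ± 0.077 and 0.61 ± 0.091. The calls of ZNF511 and ZNF688 held in every alternative fit. That of ZNF142 ended without cisplatin replicate 1 (0.64). That of ZNF76 ended without cytarabine replicate 2 (0.41), without either cisplatin array (0.83 and 0.46), without any paclitaxel or cytochalasin D array (0.65), and with the replicate number as a block. Over the whole contrast 15 and 16 of 31 calls were made without cisplatin replicate 1 or 2, and 23 and 16 without cytarabine replicate 1 or 2.

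The other 3 pairs of this orientation hardly separated the members, and few features were called in them at all. Cytarabine minus paclitaxel gave 0 calls among 87 members (9 higher and 9 lower at an unadjusted p under 0.05 in limma), with 0.0305% of 6558 features called higher and 0.0305% lower. Leaving out cytarabine replicate 1 gave 2 calls there. Paclitaxel minus cytochalasin D gave 0 among 91 (7 higher and 3 lower unadjusted in limma), with 0.131% of 6855 features called higher and 0.117% lower, and leaving out paclitaxel replicate 2 gave 1. Cytarabine minus cytochalasin D gave 2 higher and 1 lower among 87, with 1.83% and 2.63% of 6604 features. ZNF688 (0.61 ± 0.091, adjusted p = 0.0158, limma) and ZNF511 (0.58 ± 0.077) were higher in cytarabine. ZNF467, linked to the choice between bone and fat cell fates, was lower at −0.45 ± 0.097. All 3 of these calls ended without cytarabine replicate 2 (ZNF688 0.51, ZNF511 0.58, ZNF467 −0.40) and without either cytochalasin D array. ZNF467 lost its call without any array of cytarabine, cisplatin, paclitaxel or cytochalasin D, with values then from −0.51 to −0.40.

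**Figure D3:**
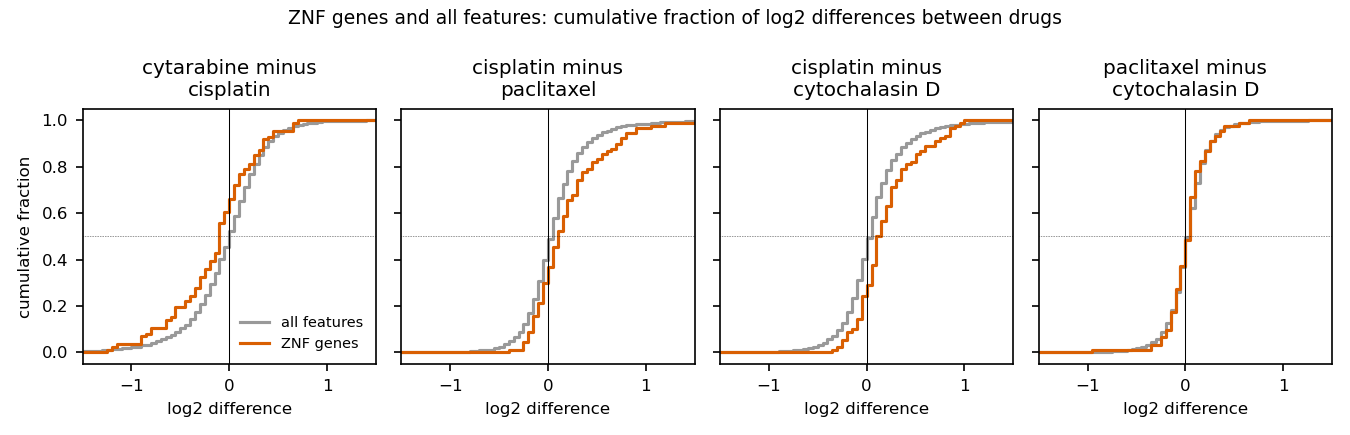
Cumulative fraction (vertical axis) of the log2 difference between 2 drugs (horizontal axis, shown from −1.5 to 1.5) for the ZNF genes tested (orange) and all features tested (grey). The ZNF curve lies left of grey in cytarabine minus cisplatin (medians −0.12 and −0.015), right of grey in cisplatin minus paclitaxel (0.081 and 0.0042) and cisplatin minus cytochalasin D (0.10 and 0.0032), and on grey in paclitaxel minus cytochalasin D.

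Among regulators fixed for description whatever their values, ZNF143 activates small nuclear RNA genes and many housekeeping promoters. It had no 5-FU value and read 0.23 and 0.24 with cytarabine, 0.46 and 0.55 with cisplatin, −0.35 and −0.11 with paclitaxel and −0.054 and 0.10 with cytochalasin D. Both DNA-directed drugs of this orientation gave values above both cytoskeletal drugs, with cytarabine minus paclitaxel at 0.46 ± 0.11 (adjusted p = 0.0985, limma, no call). ZNF148, a GC-rich element binder reported to bind p53, read −0.34, −0.26, 0.49 and 0.03 on the 5-FU arrays, −0.23 and −0.26 with cytarabine, 0.26 and 0.098 with cisplatin, 0.12 and 0.08 with paclitaxel and −0.076 and 0.11 with cytochalasin D. Its cytarabine values were the lowest of the 4 drugs of this orientation, while its 5-FU values changed sign with the channel. Cytarabine over untreated was −0.52 ± 0.086 (adjusted p = 0.00373, limma), a call that held in every alternative fit, with −0.24 when the channel term was left out. ZNF217 and ZNF143 could be tested only between drugs of this orientation. ZNF207 is not among the array's symbols.

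Testing a drug against untreated RNA needs a channel term, which only the 5-FU arrays measure, so fewer members could be tested: 41 for 5-FU, 57 for cytarabine, 59 for cisplatin, 61 for paclitaxel and 60 for cytochalasin D. Of all 98, 36 were tested in none and 39 in all 5. The channel effect of the 2 pairs of 5-FU arrays correlated at 0.366 across the 41 members with both pairs (0.339 across 3830 features, which are not independent replicates). Its variance from the differences of the pairs was 0.00971, above the 0.00514 the fit assumes, so standard errors of the 4 drugs against untreated RNA may be too small. Cisplatin gave 11 members higher (18.6%) and 2 lower (3.39%), against 11.1% and 9.83% of 4883 features. Cytarabine gave 11 higher (19.3%) and 9 lower (15.8%), against 14% and 12.8% of 4683. Without the channel term cytarabine gave 11 higher (12.6%) and 14 lower (16.1%) of 87, near the 11.8% and 16% of all features. Cisplatin then gave 16 higher (17.8%) and 2 lower (2.22%) of 90, against 6.86% and 9.28% of all features. A lower weight on the channel effect, tried after seeing the data, gave 6 cisplatin calls in place of 13 and 13 cytarabine calls in place of 20. The member median over untreated RNA was 0.090 over the members tested with cytarabine and 0.089 over those tested with cisplatin. Over all features tested the median was 0.043 with cytarabine and 0.014 with cisplatin. Leaving out cisplatin replicate 1, cisplatin replicate 2 or 5-FU replicate 1 gave 5, 7 and 8 cisplatin calls.

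With cisplatin, ZNF282 rose by 0.89 ± 0.11 (1.86-fold higher, adjusted p = 0.00179, limma) and ZNF184 by 0.76 ± 0.10 (adjusted p = 0.00341, limma), and both calls held in every alternative fit. ZNF512 rose by 0.71 ± 0.11, ZNF551 by 0.46 ± 0.12, ZNF74 by 0.42 ± 0.092 and ZNF268 by 0.37 ± 0.085. Without the channel term ZNF512 (0.16), ZNF551 (0.26) and ZNF74 (0.27) were not called. ZNF268 lost its call without cisplatin replicate 1 (0.25) or 5-FU replicate 1 (0.31), ZNF74 without either cisplatin array (0.40 and 0.43), and ZNF551 without cisplatin replicate 2 (0.33) or either cytochalasin D array (0.46). ZNF581 and ZNF467 were the 2 falls, at −0.80 ± 0.15 and −0.31 ± 0.082. ZNF581 lost its call without cisplatin replicate 1 (−0.64). ZNF467 lost it without the channel term (−0.20), without 5-FU replicate 2 (−0.26) or without any array of cisplatin or cytochalasin D (−0.25 to −0.37).

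With cytarabine, ZNF703 fell by 1.53 ± 0.21 on the log2 scale (2.89-fold lower, adjusted p = 0.00228, limma), ZNF581 by 1.43 ± 0.14, ZNF451 by 0.84 ± 0.12, ZNF175 by 0.75 ± 0.091 and ZNF148 by 0.52 ± 0.086. ZNF638, a large RNA-binding zinc finger protein, fell by 0.62 ± 0.16. ZNF688 rose by 0.53 ± 0.076, ZNF511 by 0.41 ± 0.073 and ZNF609 by 0.36 ± 0.063, and these 3 held in every alternative fit, as did ZNF703, ZNF581, ZNF451, ZNF175 and ZNF148. Without the channel term, which rests on 1 pair of 5-FU arrays for ZNF451, that gene was −0.41 with cytarabine. ZNF395 (0.61 ± 0.15), which responds to hypoxia, ZNF512 (0.50 ± 0.11) and ZNF551 (0.44 ± 0.12) were also called higher. ZNF395 read 0.64 and 0.0083 on the cytarabine arrays, and its call ended without 5-FU replicate 1 (0.18) or cytarabine replicate 1 (0.29), and with the channel term left out (0.32). ZNF638, ZNF512 and ZNF551 lost theirs without either cytarabine array (ZNF638 −0.68 and −0.57, ZNF512 0.50 and 0.50, ZNF551 0.36 and 0.53). They also lost them without the channel term, at −0.34 for ZNF638, −0.054 for ZNF512 and 0.25 for ZNF551. Without 5-FU replicate 1 the count for cytarabine was 9, and without cytarabine replicate 1 it was 13.

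**Figure D4:**
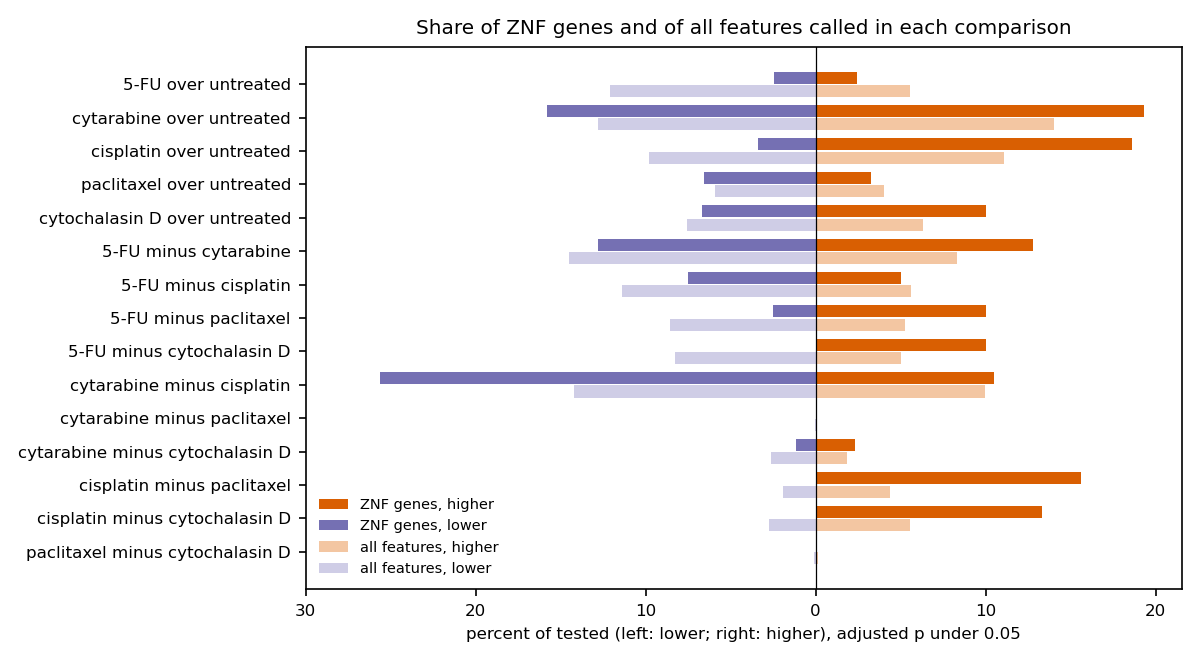
Percent of tested genes called higher (right) and lower (left) by limma at an adjusted p under 0.05 in each of the 15 comparisons, for ZNF genes (dark bars) and all features (light bars). The longest ZNF bar is cytarabine minus cisplatin, lower (25.6% against 14.2%), and in cisplatin minus paclitaxel the ZNF bar for higher reaches 15.6% against 4.4%.

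Of the members, 7 were called in the same direction in 3 or more drugs. The same count was not made over all features. The calls of a gene with cytarabine, cisplatin, paclitaxel and cytochalasin D share its channel estimate and are not separate evidence. ZNF581 read −1.66 and −1.58 with cytarabine, −1.15 and −0.82 with cisplatin, −1.60 and −1.23 with paclitaxel and −1.19 and −0.90 with cytochalasin D. All 8 values were negative, whereas the 5-FU arrays read 0.17, 0.78, 0.15 and 0.06, all above 0. It fell with cytarabine (−1.43 ± 0.14, 2.7-fold lower, adjusted p = 0.000481, limma), paclitaxel (−1.23 ± 0.15), cytochalasin D (−0.86 ± 0.15) and cisplatin, and 5-FU over untreated was 0.29 ± 0.12 (adjusted p = 0.144, no call). The difference between 5-FU and each of these drugs was called, from 1.09 (cisplatin) to 1.72 (cytarabine). The cytochalasin D call ended without cytochalasin D replicate 1 (−0.71).

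ZNF609, a zinc finger protein that works with the cohesin loader NIPBL, read 0.59 and 0.54 with paclitaxel, 0.40 and 0.44 with cytarabine, 0.45 and 0.34 with cisplatin, 0.15 and 0.23 with cytochalasin D and −0.012, −0.078, 0.091 and 0.078 on the 5-FU arrays. Every value of the first 3 drugs lay above every value of the last 2. It rose with paclitaxel (0.50 ± 0.062, adjusted p = 0.00313, limma), cytarabine and cisplatin (0.33 ± 0.062), and paclitaxel and cytarabine held in every alternative fit, while cisplatin ended without cisplatin replicate 1 (0.28). ZNF175 read −0.69 and −0.57 with cytarabine, −0.50 and −0.25 with paclitaxel and −0.54 and −0.43 with cytochalasin D, all below its 5-FU values of −0.067, −0.23, 0.16 and 0.044. It fell with these 3 drugs (paclitaxel −0.50 ± 0.091, cytochalasin D −0.61 ± 0.091), the paclitaxel call ending without paclitaxel replicate 1 (−0.38) and the cytochalasin D call without cytochalasin D replicate 1 (−0.55). ZNF451, a SUMO ligase, was called lower in cytarabine, paclitaxel (−0.54 ± 0.12) and cytochalasin D (−0.49 ± 0.12). Without the channel term the paclitaxel and cytochalasin D values were −0.11 and −0.064 and not called, and its channel effect came from 1 pair of 5-FU arrays. Its paclitaxel call also ended without either paclitaxel array (−0.56 and −0.53) or either cisplatin array (−0.54), and its cytochalasin D call without cytochalasin D replicate 1 (−0.32) or any array of cisplatin or paclitaxel (−0.49).

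ZNF512, ZNF324 and ZNF551 were called higher in 3 or more drugs, but the ratios of ZNF512 and ZNF324 before the channel term were small. ZNF512 read −0.051 and −0.057 with cytarabine, −0.0094 and 0.0064 with paclitaxel and −0.019 and −0.021 with cytochalasin D, against 0.34, 1.03, −0.51 and −0.34 on the 5-FU arrays, with opposite signs in the 2 orientations. Its channel effect was −0.55, and the values of 0.50 (cytarabine), 0.55 (paclitaxel) and 0.53 (cytochalasin D) in the fit became −0.054, −0.0015 and −0.020 without the channel term. ZNF324 read 0.044 and −0.046 with cisplatin and 0.088 and 0.056 with cytochalasin D, with a channel effect of −0.25. Its cisplatin value of 0.25 became −0.0014, and its cytochalasin D value of 0.32 became 0.072. The calls of ZNF512 ended without either array of the drug in cytarabine, paclitaxel (0.56 and 0.55) and cytochalasin D (0.53 and 0.54). Those of ZNF324 ended without either array of cytochalasin D (0.30 and 0.34) or cisplatin (0.20 and 0.29) and, for cisplatin, 5-FU replicate 1 (0.21). ZNF551, a KRAB gene, was above 0 on every array of the 4 drugs (cytarabine 0.33 and 0.16, cisplatin 0.14 and 0.39, paclitaxel 0.36 and 0.20, cytochalasin D 0.41 and 0.26). Its cytochalasin D value of 0.53 ± 0.12 stayed called without the channel term (0.34) and ended without either cytochalasin D array (0.45 and 0.61).

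**Figure D5:**
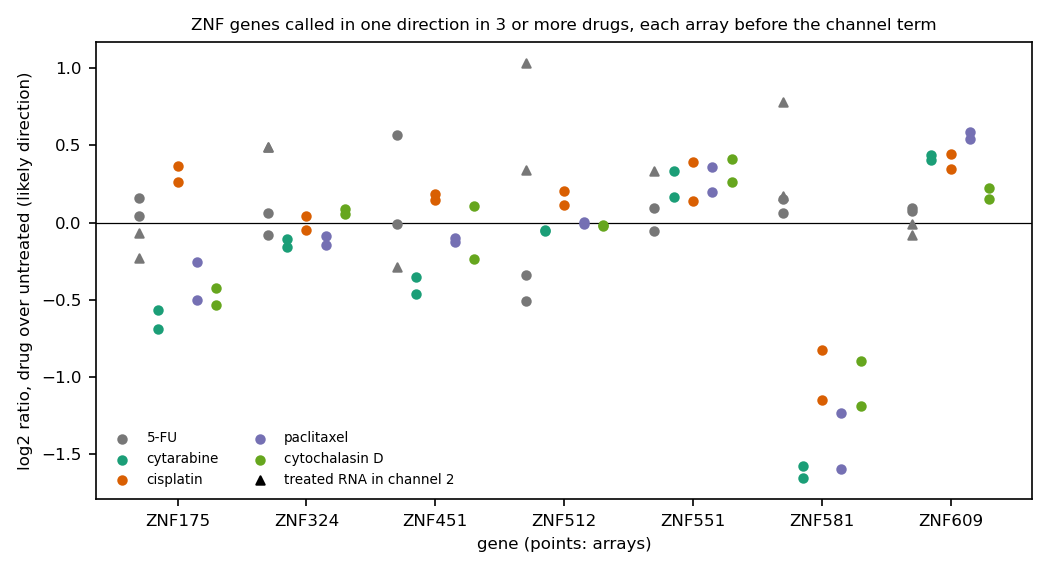
Log2 ratio on each array (before the channel term) of the 7 ZNF genes called in one direction in 3 or more drugs, coloured by drug, with triangles for 5-FU arrays that have treated RNA in channel 2. ZNF581 is low on all 8 arrays of the 4 other drugs and ZNF609 is high on those of cytarabine, cisplatin and paclitaxel, whereas ZNF512 and ZNF324 lie near 0 there and split by orientation in 5-FU.

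With paclitaxel 2 of 61 members were called higher and 4 lower, against 4.02% and 5.9% of 4796 features. They were ZNF609 and ZNF512 upward and ZNF581, ZNF451, ZNF175 and ZNF268 downward. ZNF268 fell by 0.38 ± 0.085 on the log2 scale, while it rose with cisplatin and fell with cytarabine (−0.47 ± 0.085, held in every alternative fit). Its paclitaxel call ended without 5-FU replicate 2 (−0.32), without either paclitaxel array (−0.44 and −0.32) and without either cytochalasin D array (−0.38). The count was 2 and 3 without paclitaxel replicate 1 or 2. With cytochalasin D, 6 of 60 were called higher and 4 lower, against 6.33% and 7.59% of 4835 features, but the count was 0 without cytochalasin D replicate 1, 4 without replicate 2 and 5 without 5-FU replicate 1. ZNF263, a SCAN and KRAB zinc finger gene, read −0.44 and −0.42 with cytochalasin D and from −0.23 to −0.069 with the other 3 drugs of this orientation. Cytochalasin D over untreated was −0.48 ± 0.07 (adjusted p = 0.00679, limma), and the call ended without cytochalasin D replicate 1 (−0.47). ZNF395 (0.72 ± 0.15) and ZNF146 (0.41 ± 0.086) were called higher. ZNF395 read 0.49 and 0.38, and its call ended without 5-FU replicate 1 (0.29) or either cytochalasin D array (0.66 and 0.77), and with the channel term left out (0.43). ZNF146 was 0.15 and not called without the channel term, and lost its call without either cytochalasin D array (0.49 and 0.33).

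With 5-FU, 1 of 41 members was called higher and 1 lower, against 5.54% and 12.1% of 3829 features. ZNF45, a KRAB gene with values on the 5-FU arrays only, read −0.72, −0.22, −0.88 and −0.96 and fell by 0.69 ± 0.077 on the log2 scale (1.62-fold lower, adjusted p = 0.00579, limma). All 4 arrays were below 0, and the call ended without 5-FU replicate 1 (−0.59). ZNF324 rose by 0.24 ± 0.049 (adjusted p = 0.00991, limma), a call that ended without 5-FU replicate 2 (0.20), and its values of 0.49, 0.49, −0.08 and 0.059 differed between the orientations. Leaving out 5-FU replicate 2 gave 4 calls. Leaving out the channel term lets a replicate with 1 orientation enter. It raised the members tested to 68, of which 3 rose and 7 fell, against 6.75% and 13.4% of 5589 features.

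Several of these members could not be tested for 5-FU with the channel term, and they were chosen after their values were seen. ZNF263 read −1.34, −1.24 and −1.40 on the 3 arrays with a value, in both orientations, and fell by 1.35 ± 0.052 (2.55-fold lower, adjusted p = 7.54e-06, limma without the channel term). ZNF146, a protein made of fingers alone, read −0.48, −1.0 and −1.41 and ZNF410, an activator whose main target is the NuRD remodeller CHD4, read −1.03, −0.93 and −0.94. They fell by 1.08 ± 0.13 and 0.96 ± 0.12. ZNF174, a SCAN domain gene, fell by 0.77 ± 0.15 and ZNF277 by 0.38 ± 0.09. For ZNF263, ZNF146, ZNF410, ZNF174 and ZNF277 replicate 2 had no value in the orientation with treated RNA in channel 2, so that replicate rests on 1 array. ZNF385A, a cofactor of p53 in cell cycle arrest, read 1.17 and 0.61 on the 2 arrays with a value and rose by 0.89 ± 0.24 (adjusted p = 0.0367, limma without the channel term). ZNF202 read −0.33 and −0.72 on the same 2 arrays and was called lower at −0.52 ± 0.095. Both arrays had treated RNA in channel 1, so drug and channel cannot be told apart for ZNF385A and ZNF202.

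Between 5-FU and the other drugs, 5 of 39 members were higher and 5 lower in 5-FU than in cytarabine (8.34% and 14.5% of features). Against cisplatin the counts were 2 and 3 of 40 (5.62% and 11.4%). Against paclitaxel they were 4 and 1 of 40 (5.26% and 8.56%). Against cytochalasin D they were 4 and 0 of 40 (5.02% and 8.29%), with 2 lower at an unadjusted p under 0.05 in limma. ZNF581 was higher in 5-FU in all 4 pairs. ZNF175 was higher in 5-FU than in cytarabine (0.73 ± 0.11) and cytochalasin D (0.58 ± 0.12), ZNF268 than in paclitaxel (0.50 ± 0.11) and ZNF467 than in cisplatin (0.44 ± 0.10). ZNF282 (−0.90 ± 0.14) and ZNF512 (−0.58 ± 0.14) were lower in 5-FU than in cisplatin. ZNF688 (−0.60 ± 0.096) and ZNF131 (−0.40 ± 0.091) were lower than in cytarabine, and ZNF609 lower than in paclitaxel (−0.48 ± 0.078). These pairs share the 5-FU arrays and are not separate evidence. Calls that ended on leaving out a 5-FU replicate (both orientations) were ZNF175 against cytochalasin D (replicate 1, 0.53), ZNF268 against paclitaxel (0.52 and 0.47), ZNF467 against cisplatin (replicate 1, 0.37) and ZNF131 (−0.43 and −0.38). ZNF512 was −0.028 and not called without the channel term, and lost its call without either cisplatin array (−0.63 and −0.54), ZNF467 also without cisplatin replicate 1 (0.38), ZNF175 without cytochalasin D replicate 1 (0.53), ZNF268 without paclitaxel replicate 2 (0.44) and ZNF131 without cytarabine replicate 2 (−0.36). Without 5-FU replicate 1 the calls numbered 5 against cytarabine, 3 against cisplatin, 2 against paclitaxel and 1 against cytochalasin D. Those against cisplatin numbered 8 without 5-FU replicate 2 and 2 without cisplatin replicate 1. Those against paclitaxel numbered 3 without either paclitaxel array, and those against cytochalasin D 1 and 2 without its replicate 1 or 2.

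ZNF37A, chosen after its values were seen, had low ratios in all 4 drugs with a value. It read −1.95 and −2.59 with cytarabine, −1.03 and −1.16 with cisplatin, −1.40 and −1.10 with paclitaxel and −1.22 and −1.61 with cytochalasin D, and had no 5-FU value. All 8 values were below −1, and with no 5-FU value the channel effect and the drugs cannot be told apart. Cytarabine minus cisplatin was −1.17 ± 0.23 (adjusted p = 0.0116, limma), a difference in which the channel cancels, and this call ended without cisplatin replicate 1 (−1.10).

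Of 21 genes listed as partners of KRAB silencing, 13 are on the array. Summed over the 5 drugs, 7 calls were made among 7 to 9 partners tested in each: 1 upward in cytarabine, and downward 1 in 5-FU, 2 in cisplatin, 2 in paclitaxel and 1 in cytochalasin D. Over all features 14% were called higher in cytarabine, and 12.1%, 9.83%, 5.9% and 7.59% lower in 5-FU, cisplatin, paclitaxel and cytochalasin D. The sum was 4 without either 5-FU replicate, cisplatin replicate 2 or either paclitaxel array. TRIM28, the corepressor itself, was not called: its values were −0.041 ± 0.22 with 5-FU, −0.20 ± 0.27 with cisplatin and −0.40 ± 0.27 with cytochalasin D, with errors too wide to show a difference of this size. SETDB1 is not among the array's symbols. CHD4 of the NuRD complex fell with 5-FU (−0.58 ± 0.12, adjusted p = 0.0141, limma), a call that ended without 5-FU replicate 2 (−0.46). MPHOSPH8 of the HUSH complex fell with cisplatin (−0.54 ± 0.086) and held in every alternative fit. The deacetylase HDAC1 fell with paclitaxel (−0.46 ± 0.11), but was −0.15 and not called without the channel term, and its call ended without any 5-FU replicate or paclitaxel array (−0.44 to −0.49). HDAC1 was also called lower with cisplatin (−0.54 ± 0.11), with the same channel estimate. MTA2 rose with cytarabine (0.39 ± 0.082), a call that ended without cytarabine replicate 1 (0.27) or 5-FU replicate 1 (0.30). RBBP7 was lower in cytochalasin D (−0.22 ± 0.058), a call lost under most alternatives, without either cytochalasin D array among them (−0.21 and −0.22). RBBP7 was also called lower with paclitaxel (−0.25 ± 0.058). DNMT1, the maintenance DNA methyltransferase, chosen after its values were seen, was higher in cisplatin than in cytochalasin D (0.62 ± 0.093). Its call ended without cisplatin replicate 1 (0.53) or either cytochalasin D array (0.66 and 0.58). Of 13 partners tested in that pair 1 was higher and 1 lower, against 5.53% and 2.72% of all features. MPHOSPH8 was the lower one (−0.64 ± 0.09, adjusted p = 0.0088, limma).

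Zinc finger factors outside the ZNF naming were set beside the members for comparison, with 36 such genes on the array. In cisplatin minus paclitaxel 5 of 33 tested were higher and 0 lower, against 4.4% and 1.92% of all features, with a median of 0.10. The 5 were KLF10, EGR1, PRDM2, SP3 and ZEB2, all but KLF10 chosen after their values were seen. KLF10, an early target of TGF-beta, was also the largest rise of this list with cisplatin over untreated (1.44 ± 0.17, 2.72-fold higher, adjusted p = 0.00152, limma), which held in every alternative fit. Over paclitaxel it was 1.22 ± 0.20, beside the immediate early gene EGR1 at 0.88 ± 0.10 and the methyltransferase PRDM2 at 0.86 ± 0.097. The KLF10 difference lost its call without either cisplatin array (1.16 and 1.28) or paclitaxel replicate 2 (1.01), while EGR1 and PRDM2 held in every alternative fit. The count was 2 without either cisplatin array and 3 without either paclitaxel array. In cytarabine minus cisplatin 2 of 29 were higher and 8 lower, against 9.94% and 14.2% of all features. Cisplatin minus cytochalasin D gave 4 of 32 higher and 1 lower, KLF4 (−0.54), against 5.53% and 2.72% of all features. The median of these genes there was −0.0042, whereas that of the members was 0.10. WT1 fell with cytarabine (−0.66 ± 0.073, adjusted p = 0.000709, limma) and held in every alternative fit. WT1 was also called lower with paclitaxel (−0.33) and cytochalasin D (−0.47). ZBTB17, a MYC partner, was called higher with paclitaxel (0.52 ± 0.078), but was 0.092 and not called without the channel term and lost the call without paclitaxel replicate 1 (0.51). With the same channel estimate ZBTB17 was also called higher with cytarabine (0.61), cisplatin (0.61) and cytochalasin D (0.38). ZBTB10 rose with 5-FU (0.22 ± 0.049), which ended without 5-FU replicate 1 (0.16), and was also called higher with cytarabine (0.22). IKZF1 was called higher with cytochalasin D (0.61 ± 0.13), turned to −0.27 without the channel term, and lost the call without cytochalasin D replicate 2 (0.45) or either cisplatin array (0.61). With the same channel estimate IKZF1 was also called higher with cisplatin (0.56).

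By RefSeq's gene annotation 33 members lie on chromosome 19 and 65 elsewhere. In cisplatin minus paclitaxel 5 of 31 members of chromosome 19 were higher and 9 of 59 of the others, with medians of 0.12 and 0.076. In cisplatin minus cytochalasin D the counts were 3 of 31 and 9 of 59, with medians of 0.062 and 0.14. In cytarabine minus cisplatin 9 of 29 and 13 of 57 were lower, and 1 of 29 and 8 of 57 higher, with medians of −0.11 and −0.12. The difference between both sets was not tested. ZNF195 and ZNF516 show how far a gene's value can rest on a probe. The cisplatin values of ZNF195 were 0.80 and 0.56 on one probe and 0.0044 and 0.041 on the other, and the difference from paclitaxel was −0.071 and not called when only the probe present on all arrays was used. ZNF516 read 0.54 on the single cisplatin array where its first probe had a value, and −0.029 and 0.065 on its second.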

How the data were processed

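H460 RNA with and without drug was hybridised together on 12 two-channel arrays. The authors deposited 1 log ratio per probe and array, taken here as log2. Which channel is the numerator, the log base, the background correction, the normalization and any filter are steps not given in the sources used here, and spot intensities were not analysed here. Of 8170 probes, 5930 carry 1 gene symbol in the platform annotation, 79 several and 2161 none. Arrays were centred on their medians over all probes and the probes of a gene averaged. Ratios were turned to treated over untreated with the channel labels and with 1 common sign, set from MDM2 (−1.48 before the sign in 5-FU), CDKN1A (−2.49) and the median of 11 p53 targets (−0.22).

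The arrays of a 5-FU replicate were averaged across the channel orientations. Drugs and a channel term, weighted by the 5-FU pairs, were fitted over all features with limma 3.58.1 in R 4.3.3 (lmFit, eBayes). P-values were Benjamini-Hochberg adjusted over all features tested in a comparison, with a threshold of 0.05, and were two-sided. The fit was tested on simulated data. The files give no depth. The number of arrays limits the precision.

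Named members are those with the largest changes among the calls, 6 per direction for a drug over untreated RNA and 2 per direction for a pair of drugs, members called in 3 or more drugs, and ZNF143, ZNF148, ZNF207 and ZNF217. Names outside this rule carry a remark in the text or stand in a list of counted genes. The members and all lists were chosen with earlier results of these data known. Gene names, chromosomes and promoters come from RefSeq tables of GRCh38.p14. The planned count of fingers and search for KRAB motifs in protein sequences were not run, as no protein table was used here. In all, 20 alternatives were run. Where each probe was its own feature, a gene with several probes was read from the probe with the smallest p.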

Additional observations from a re-analysis of the deposited data

Results flagged for a closer look

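ZNF581 on one 5-FU array read 0.78, far from the other 3 arrays, of which the nearest read 0.17. Of the range of the 4 arrays, this gap took a share of 0.845, above Dixon's critical value for 4 samples. Chance gives such a value in about 1 of 20 groups.

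The remaining results are members whose effects differ between 2 drugs by the test of the difference itself. ZNF581 was higher in 5-FU than in cytarabine by 1.72, than in paclitaxel by 1.52, than in cytochalasin D by 1.15 and than in cisplatin by 1.09. ZNF175 was higher in 5-FU than in cytarabine by 0.73 and than in cytochalasin D by 0.58. ZNF268 was higher in 5-FU than in paclitaxel by 0.50, and ZNF467 than in cisplatin by 0.44. In 5-FU minus cytarabine ZNF688 was −0.60 and ZNF131 −0.40, in 5-FU minus cisplatin ZNF282 was −0.90 and ZNF512 −0.58 (−0.028 and not called without the channel term), and in 5-FU minus paclitaxel ZNF609 was −0.48.

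Within the shared orientation, cytarabine minus cisplatin was 0.68 for ZNF142, 0.65 for ZNF76, −1.28 for ZNF230 and −1.22 for ZNF703. Cytarabine minus cytochalasin D was 0.61 for ZNF688, 0.58 for ZNF511 and −0.45 for ZNF467. Cisplatin minus paclitaxel was 1.17 for ZNF230 and 1.02 for ZNF282, and cisplatin minus cytochalasin D was 1.00 for ZNF282 and 0.92 for ZNF230. The comparisons share arrays, so these values are not independent of each other.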

How the results depend on the processing

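The median of the members and the counts of calls moved as follows, and the cause was not tested except where a setting tests fewer genes or samples. Of 103 named results, 79 kept direction and call without the channel term, 88 with every array as its own observation, 103 with no centring, 97 with arrays scaled to the same spread, 103 with robust moderation and 87 with a lower weight on the channel effect, the last chosen after seeing the data. With only probes present on all arrays, 63 were tested and all 63 kept both. The 103 include comparisons of ZNF143, ZNF148, ZNF217 and TRIM28 that were not called and so had no call to lose.

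Without the channel term 5 called values changed sign. They were ZNF512 with cytarabine (−0.054), paclitaxel (−0.0015) and cytochalasin D (−0.020), ZNF324 with cisplatin (−0.0014) and IKZF1 with cytochalasin D (−0.27). The values of ZNF512 and ZNF324 lay near 0, and ZNF512 with cytarabine and ZNF324 with cisplatin were no longer called. Calls of members then numbered 10 of 68 with 5-FU (14.7%, against 20.2% of all features). For 5-FU minus cytarabine they numbered 23 of 62 (37.1% against 27%) and minus cisplatin 11 of 64 (17.2% against 17.7%). Minus paclitaxel they numbered 8 of 66 (12.1% against 15.7%) and minus cytochalasin D 8 of 65 (12.3% against 15%). More members were tested than with the channel term. With every array as its own observation 5-FU gave 5 and paclitaxel 3. With only probes present on all arrays, which tests fewer genes, 5-FU gave 1, cisplatin 8 and cytochalasin D 6. Cytarabine minus cisplatin gave 14, cisplatin minus paclitaxel 4 (1 for the other C2H2 genes) and cisplatin minus cytochalasin D 3. Scaled arrays gave 13 for cytarabine. The lower channel weight gave 13 for cytarabine, 6 for cisplatin, 5 for cytochalasin D and 2 for 5-FU minus cytochalasin D, with 4 calls for KRAB partners and 8 for other C2H2 genes over the 5 drugs.

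Requiring an absolute log2 change of at least 1 left 0 for 5-FU, 2 for cytarabine, 0 for cisplatin, 1 for paclitaxel and 0 for cytochalasin D. It left 1 in each pair with 5-FU, 3 in cytarabine minus cisplatin and 0 in cytarabine minus cytochalasin D. In cisplatin minus paclitaxel it left 2, and in cisplatin minus cytochalasin D 0. Except for those without the channel term, the counts of this section have no share over all features beside them. They do not show whether the members moved apart from the other features.

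The member median over untreated RNA was 0.090 with cytarabine (0.043 over all features tested), 0.089 with cisplatin (0.014), 0.0039 with paclitaxel (0.023) and −0.0060 with cytochalasin D (0.0185). Without the channel term it was 0.0099 with cytarabine (0.0047 over all features tested), 0.056 with cisplatin (0.0013) and −0.025 with paclitaxel (0.0051). With every array as its own observation it was 0.0059 with paclitaxel. With no centring it was 0.083 with cisplatin and 4e-04 with paclitaxel. With scaled arrays it was 0.076 with cytarabine, 0.079 with cisplatin and −0.023 with paclitaxel. With only probes present on all arrays it was 0.10 with cytarabine, 0.038 with cisplatin, 0.027 with paclitaxel and 0.046 with cytochalasin D.

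Leaving out 1 replicate at a time leaves 1 sample of that drug, assumed to vary like the others. Calls then ranged from 2 to 4 with 5-FU, 9 to 20 with cytarabine, 5 to 14 with cisplatin, 2 to 8 with paclitaxel and 0 to 11 with cytochalasin D. For 5-FU they ranged from 5 to 13 minus cytarabine, 2 to 8 minus cisplatin, 2 to 7 minus paclitaxel and 1 to 5 minus cytochalasin D. For cytarabine they ranged from 15 to 31 minus cisplatin, 0 to 2 minus paclitaxel and 0 to 3 minus cytochalasin D. For cisplatin they ranged from 4 to 13 minus paclitaxel and 6 to 12 minus cytochalasin D, and from 0 to 1 for paclitaxel minus cytochalasin D. Calls over the 5 drugs ranged from 4 to 10 for KRAB partners and 11 to 17 for other C2H2 genes (2 to 5 in cisplatin minus paclitaxel). The medians ranged from 0.019 to 0.067 with 5-FU, 0.075 to 0.10 with cytarabine, 0.056 to 0.095 with cisplatin, −0.012 to 0.011 with paclitaxel and −0.051 to 0.023 with cytochalasin D.

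Same-numbered replicates of different drugs did not deviate together (correlations across features from −0.061 to 0.090). Whether same-numbered samples shared a culture or untreated RNA cannot be told from these correlations. With the replicate number as a block, the calls numbered 3 for 5-FU, 20 for cytarabine, 13 for cisplatin, 6 for paclitaxel and 11 for cytochalasin D. Between drugs, the replicate block gave 34 for cytarabine minus cisplatin, 13 for cisplatin minus paclitaxel and 11 for cisplatin minus cytochalasin D.

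With 2 replicates per drug, 1 orientation for 4 drugs and many 5-FU values missing, 36 members have no test against untreated RNA.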
